A study of Homo sapiens with 4 samples.

Results

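The regions described here held a STARR-seq peak in the lists of MG132-treated, SHP1705+MG132-treated and DMSO-treated cells and no peak in the list of SHP1705-treated cells. STARR-seq measures the enhancer activity of genomic fragments: fragments are cloned into a reporter plasmid, each active one drives transcription of itself, and that RNA is sequenced. The cells were MDA-MB-231, a human breast cancer line of mesenchymal, triple-negative type, and the plasmids carried fragmented DNA of the same line. Medium with 10 µM SHP1705 (a CRY stabilizer, per the submitters; CRY proteins repress the circadian clock), with 100 nM MG132 (an inhibitor of the proteasome), with both drugs (SHP1705+MG132, the combination) or with DMSO was added before transfection, and RNA was taken 8 h after it. Each treatment gave 1 library and 1 peak list, so there is no spread between replicates, no test between treatments, and every difference compares single libraries.

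Peaks on chromosomes 1 to 22 and X were joined into 1 region wherever they shared at least 1 bp. Of 223513 such regions, 1112 had this pattern. The number was 535 with the lists cut to equal length by −log10 p, and 310 when an SHP1705 peak within 10 kb counted as present. Among the 5696 regions with a peak in all of MG132, the combination and DMSO, 19.5% had no SHP1705 peak. This share is what the rule selects, and nothing is read from it. For the other lists the share absent was 12.8% for MG132, 17.3% for the combination and 17.5% for DMSO, each among regions present in the other 3 lists. The SHP1705 library was the deepest, with 118324303 fragments, against 27289266 in MG132, 28331486 in SHP1705+MG132 and 29717604 in DMSO. Its fragment size was 299 bp, against 354 bp in MG132, 355 bp in SHP1705+MG132 and 346 bp in DMSO. Whether this library is comparable with the others cannot be settled from the files, and an effect of the drug and a property of this library cannot be told apart. Its lowest called peak also reached the least height: it had 0.237 fragments per 1000000 at the summit, against 0.440 in MG132, 0.424 in SHP1705+MG132 and 0.437 in DMSO.

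Most of the regions lay in long stretches without annotated genes, which include the centromeres. No annotation of centromeres or repeats was used. A centromere is the part of a chromosome that attaches to the spindle, and in human cells it is built of alpha satellite DNA, a short unit repeated in long tandem arrays with almost no genes. Some chromosomes share closely related satellite families, among them chromosomes 1, 5 and 19, and the acrocentric chromosomes 13, 14, 21 and 22. The hg38 assembly fills these arrays with modelled sequence, and a read from such repeats can match many places, of which an aligner has to choose 1. How such reads were assigned is not given in the sources used here. A peak there can reflect reporter activity, the number of copies in the plasmid library, or the placement of reads, and these cannot be told apart without the plasmid input, which was not used here.

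Only 2 of the 1112 regions touched a promoter window of RefSeq (250 bases before to 50 bases after a gene's start, GRCh38.p14, whose chromosome coordinates are those of hg38). These are the only regions whose sequence was at hand, and they are shown because they touch such a window. The first region overlaps the noncoding gene LINC02482 but not MRFAP1L2 itself, which lies 74 bp away. In the first sequence, the 177 bases inside the region are in capitals. The second lies wholly inside its region, and the capitals mark its only match to a searched motif.
MRFAP1L2 promoter, chr4:6673825-6674124, plus strand: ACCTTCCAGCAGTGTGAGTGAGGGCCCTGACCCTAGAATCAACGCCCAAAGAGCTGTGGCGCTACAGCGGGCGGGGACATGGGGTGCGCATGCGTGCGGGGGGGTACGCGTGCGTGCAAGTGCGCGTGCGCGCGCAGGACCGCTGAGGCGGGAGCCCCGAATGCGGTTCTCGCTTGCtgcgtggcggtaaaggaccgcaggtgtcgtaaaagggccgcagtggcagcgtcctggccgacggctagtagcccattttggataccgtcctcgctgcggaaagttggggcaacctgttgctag
TAF11L6 promoter, chr5:17528419-17528718, plus strand: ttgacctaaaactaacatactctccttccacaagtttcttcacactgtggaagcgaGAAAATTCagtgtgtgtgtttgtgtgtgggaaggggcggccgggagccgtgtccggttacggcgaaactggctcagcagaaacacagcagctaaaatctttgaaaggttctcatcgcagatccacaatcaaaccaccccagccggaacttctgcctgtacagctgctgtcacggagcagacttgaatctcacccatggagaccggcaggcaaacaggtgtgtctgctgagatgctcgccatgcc
The first window is shared with the start of the noncoding gene LINC02482 on the opposite strand, and its bases were 65.3% G or C, against a median of 58.7% over 34961 windows. The second had 52.3% G or C. For 7 motifs, both strands were searched. The only match was the heat shock unit in both orientations, GAANNTTC, at base 57 of the TAF11L6 window, and 6.79% of all windows hold it. The E-box of clock activators and other factors, CACGTG, is in 7.27% of windows and in neither of these. The same holds for the AP-1 element of stress factors, TGANTCA, found in 7.68% of windows. The cyclic AMP element, TGACGTCA, is in 1.85% of windows, and the D-box of clock output factors, TTATGTAA, is in 0.890%. Among core promoter elements, TATAAA is in 11.5% of windows, whereas the letters of the CCAAT box occur in 34.6%. A match of letters is no evidence of binding, and TAF11L6 belongs to a family of near-identical genes whose reads can be placed on another copy.

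Of the 1112 regions, 84.4% lay outside every annotated gene (95% Wilson interval 82.2 to 86.5, which covers counting error only). The same share was 62.1% for regions in all lists but MG132, 57.4% for all but the combination, 65.7% for all but DMSO and 66.8% for regions in all 4 lists. Neighbouring regions are not independent, so the interval is no test between the groups. Inside protein-coding genes lay 10.5% (8.85 to 12.5), against 24.7% of regions in all 4 lists. On an annotated pseudogene, an inactive gene copy, lay 14 regions or 1.26%, against 11.7% of regions in all 4 lists. Near the start or end of a protein-coding gene, within 1 kb, lay 13 regions or 1.17% (0.684 to 1.99), against 17.1% for all but MG132, 20.6% for all but the combination, 14.2% for all but DMSO and 15.9% for all 4 lists. Regions in all 4 lists and in the other 3-list patterns need an SHP1705 peak, and SHP1705 peaks had their own location: regions in SHP1705 only lay within 1 kb of a gene end in 17.2% of cases, against 2.65% for MG132 only, 2.67% for the combination only and 2.74% for DMSO only.

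**Figure D1:**
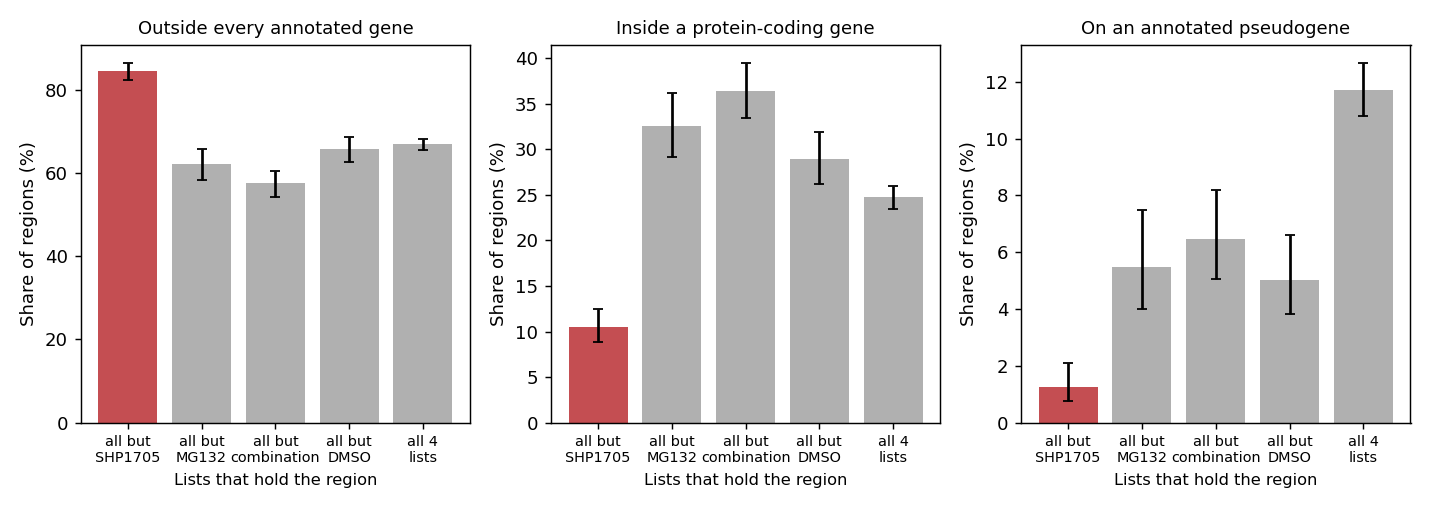
Share of regions (%) outside every gene, inside a protein-coding gene and on a pseudogene, for the regions in all lists but SHP1705 (red) and for the other patterns in 3 or 4 lists (grey), with Wilson 95% intervals. The red bar stands at 84.4% in the first panel, at 10.5% in the second and at 1.26% in the third.

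The assembly has 30 stretches of at least 1 Mb between neighbouring annotated genes on these chromosomes, a cut-off chosen after the data were seen. They total 177 Mb, or 5.84% of the chromosomes, and include the centromeres. Of the 1112 regions, 782 or 70.3% (67.6 to 72.9) lay in 24 of these stretches, which fall on all 23 chromosomes. The share was 63.9% for regions in all 4 lists, 57.6% for all but DMSO, 51.6% for all but the combination and 54.2% for all but MG132. It was far smaller for peaks as a whole, at 10.0% of SHP1705 peaks, 14.04% of MG132 peaks, 16.4% of combination peaks and 19.8% of DMSO peaks. The concentration in gene-free stretches was thus shared with the regions in all 4 lists. The remaining 330 regions are called the regions elsewhere. Of these, 35.5% lay inside a protein-coding gene, against 68.5% of the 1655 regions in all 4 lists outside the stretches. Within 1 kb of a gene end lay 3.94%, against 44.2%, and outside every gene 47.6%, against 8.04%.

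Chromosome 1 held 84 of the regions, chromosome 18 held 83, chromosome 7 held 68, chromosome 3 held 66 and chromosome 11 held 64. Chromosome 15 held the fewest, 18. Per Mb of chromosome, chromosome 21 had the most at 1.16, followed by chromosome 18 at 1.03 and chromosome 22 at 0.807, with a median of 0.366 over the 23 chromosomes. On these 3 chromosomes 44 of 54, 75 of 83 and 37 of 41 regions lay in a gene-free stretch. Elsewhere the density had a median of 0.0996 per Mb and was highest on chromosome 20, at 0.326 per Mb.

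**Figure D2:**
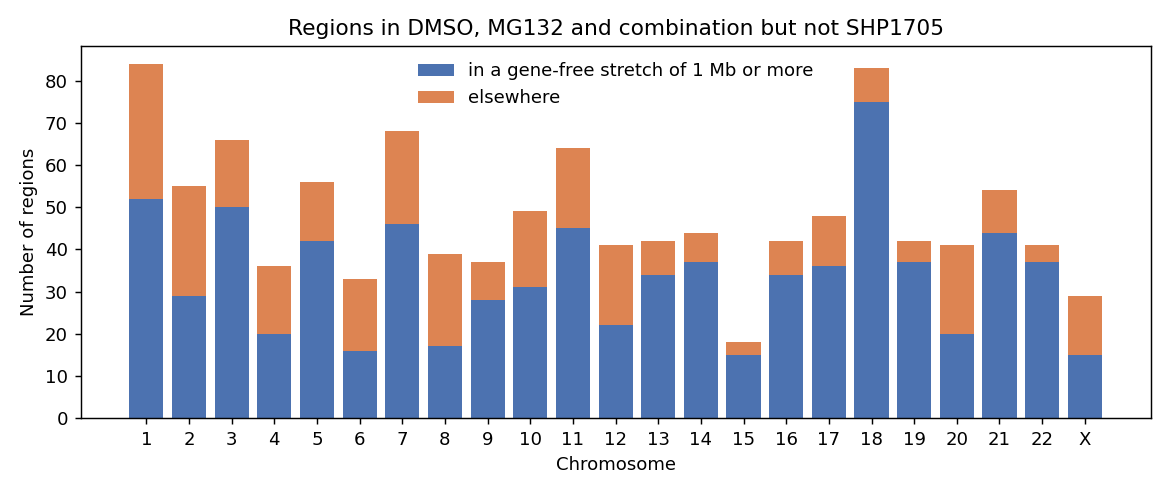
Number of regions in MG132, the combination and DMSO but not SHP1705 on each chromosome, divided into those in gene-free stretches of at least 1 Mb (blue) and those elsewhere (orange). Chromosomes 1 and 18 hold 84 and 83 regions, and blue makes up 75 of the 83 on chromosome 18.

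The regions lay in clusters. Of the 1112, 746 or 67.1% (64.3 to 69.8) had another within 100 kb, against 72.5% of regions in all 4 lists, 56.3% for all but DMSO, 47.3% for all but the combination and 45.02% for all but MG132. These groups had 4584, 973, 961 and 673 regions in the same order. A larger group has nearer neighbours by number alone, so the shares are not directly comparable. They formed 152 clusters, and the 16 clusters of 10 or more regions, with 258 regions in all, lay in gene-free stretches. The largest cluster had 29 regions on chromosome 22 (chr22:13730052-15027846), and its span also held 201 SHP1705 peaks and 52 regions in all 4 lists. The next had 24 regions on chromosome 21 (chr21:12105179-12984463), with 154 SHP1705 peaks, and 22 on chromosome 18 (chr18:16864352-17780257), with 125. A cluster of 15 regions on chromosome 11 (chr11:51153419-51521777) stood among 14 SHP1705 peaks and 1 region in all 4 lists. The large clusters therefore were not empty of SHP1705 peaks. Of the 330 regions elsewhere, 35 were clustered.

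The share of regions that lacked SHP1705 differed widely between gene-free stretches. In the 23 stretches with at least 10 of the regions, that share had a median of 24.7% of regions in the other 3 lists, from 7.51% on chromosome 6 (16 of 213) to 78.9% on chromosome 11 (45 of 57). It passed 50% in 3 stretches, on chromosomes 11, 8 (17 of 27, 63.0%) and 17 (36 of 60, 60.0%). Both this share and the number of SHP1705 peaks come from the SHP1705 list that the rule used, so they are not independent observations. In these 3 stretches SHP1705 had few peaks, with 120 on chromosome 11 against 376 in MG132, 426 in SHP1705+MG132 and 331 in DMSO. On chromosome 8 it had 38, against 212 in MG132, 188 in SHP1705+MG132 and 175 in DMSO, and on chromosome 17 it had 99, against 260, 231 and 272 in the same order. On chromosome 6 it had 352, against 325 in MG132, 303 in SHP1705+MG132 and 347 in DMSO. Chromosome X stood apart from this: SHP1705 had 125 peaks there, against 307 in MG132, 250 in SHP1705+MG132 and 302 in DMSO, yet 19.7% of regions in the other 3 lists lacked SHP1705.

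Peak heights also differed between gene-free stretches. The height of a region is its pileup, the count of fragments stacked over the summit, per 1000000 fragments of the library. Among the regions without SHP1705, those in the chromosome 1 stretch had median heights of 16.5 in MG132, 12.4 in SHP1705+MG132 and 16.5 in DMSO, and those of chromosome 5 had 17.4, 15.6 and 15.7 in the same order. Those in the chromosome 11 stretch had 1.76 in MG132, 2.15 in SHP1705+MG132 and 2.19 in DMSO, and those of chromosome 8 had 2.27, 1.73 and 2.42.

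Over all 1112 regions the 3 lists had similar heights. The median was 4.87 fragments per 1000000 in MG132 (95% interval of the median 4.51 to 5.28), 4.91 in the combination (4.52 to 5.40) and 5.22 in DMSO (4.88 to 5.62). The lowest values were 0.440, 0.424 and 0.437, the lowest height that was called in each list, and the highest were 105, 117 and 90.4. Regions in all 4 lists were taller, with medians of 9.56 in MG132, 9.001 in SHP1705+MG132 and 8.78 in DMSO, and of 2.76 in SHP1705.

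Regions in gene-free stretches and elsewhere stood on opposite sides of the regions in all 4 lists. In the stretches, the regions without SHP1705 had medians of 5.46 in MG132, 5.40 in SHP1705+MG132 and 5.38 in DMSO, against 15.98, 14.6 and 15.4 for regions in all 4 lists. Elsewhere, they had 3.77 in MG132, 3.74 in SHP1705+MG132 and 4.64 in DMSO, against 2.38, 1.94 and 2.09 for regions in all 4 lists. In those same regions in all 4 lists the SHP1705 peak had a median of 1.496 in the stretches and of 47.7 elsewhere.

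**Figure D3:**
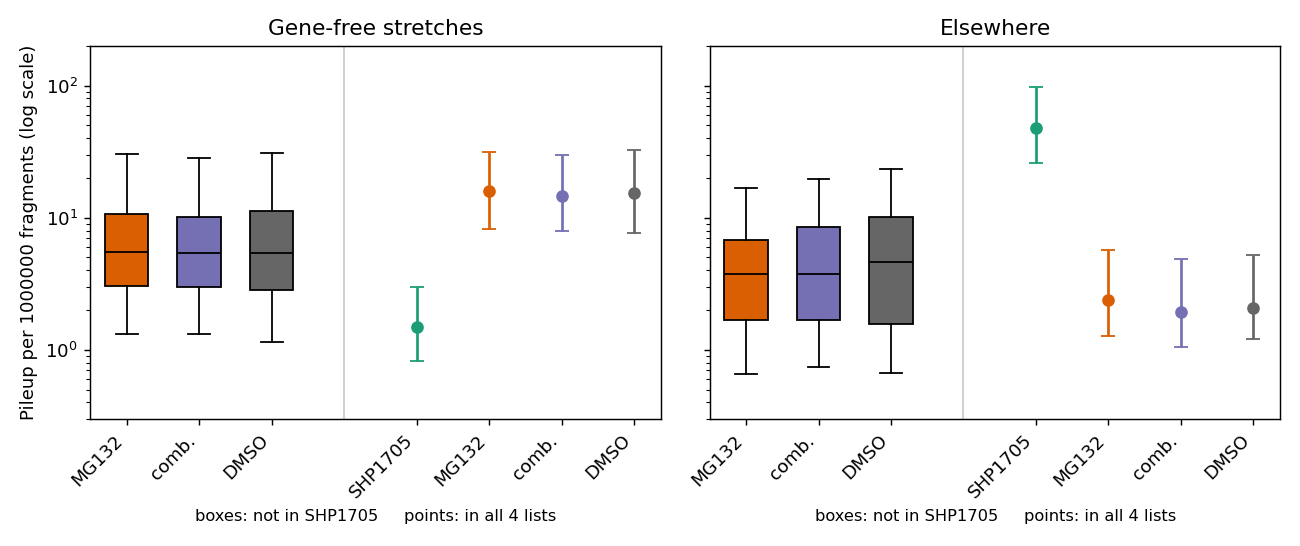
Height per 1000000 fragments (log scale) in gene-free stretches and elsewhere. Boxes show the median, quartiles and 5th to 95th percentiles of the regions without SHP1705, and points show the median and quartiles of regions in all 4 lists. SHP1705 is the lowest point in the stretches (1.496) and the highest elsewhere (47.7).

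The deposited fold of a peak, its pileup over the background within 10000 bp, had similar medians in the 3 lists, at 6.10 in MG132, 6.33 in SHP1705+MG132 and 6.32 in DMSO. In gene-free stretches the median fold was 5.05 in MG132, 5.29 in SHP1705+MG132 and 5.22 in DMSO. Elsewhere it was 13.5, 12.9 and 15.4 in the same order. The local background, worked back from pileup and fold, was 0.999 fragments per 1000000 in MG132, 0.893 in SHP1705+MG132 and 0.918 in DMSO in the stretches, against 0.212, 0.227 and 0.241 elsewhere. The regions in the stretches thus stood on many fragments of the surroundings, and those elsewhere were more isolated piles.

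In the stretches, whether SHP1705 had a peak went with height. Regions in the other 3 lists were grouped by their lowest height among MG132, the combination and DMSO, in classes set after the data were seen. In gene-free stretches 51 of 63 regions under 1 fragment per 1000000 lacked SHP1705, or 81.0% (69.6 to 88.8). The share was 59.7% from 1 to 2, 44.7% from 2 to 4, 20.1% from 4 to 8, 11.1% from 8 to 16 and 5.05% (3.897 to 6.51) at 16 or more. Each class had a lower share than the one below it in height. Elsewhere there was no such order: the share was 16.5% under 1, 15.0% from 1 to 2, 18.3% from 2 to 4, 26.7% from 4 to 8, 11.7% from 8 to 16 and 2.47% at 16 or more, where 2 of 81 regions lacked SHP1705.

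**Figure D4:**
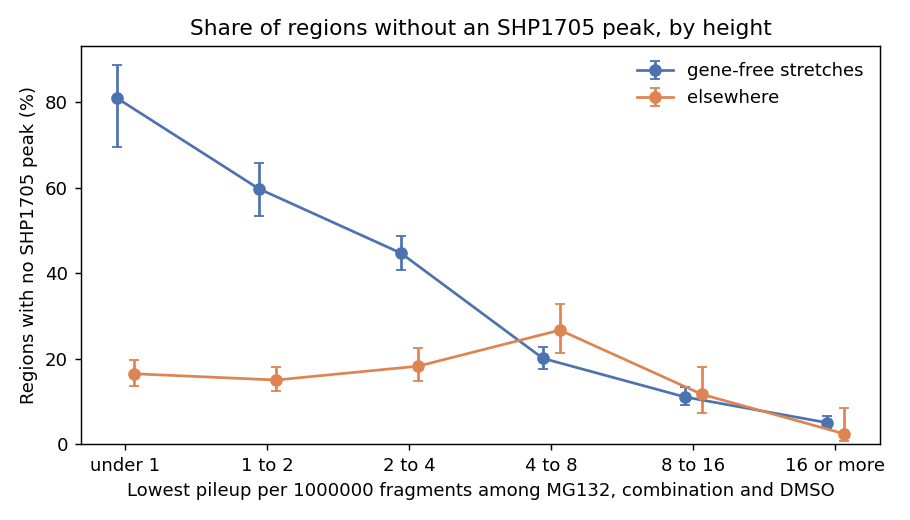
Share of regions with no SHP1705 peak (%) among regions in the other 3 lists, by their lowest height per 1000000 fragments, with Wilson 95% intervals. In gene-free stretches (blue) the share falls from 81.0% in the lowest class to 5.05% in the highest, and elsewhere (orange) it lies between 2.47% and 26.7%.

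SHP1705 peaks were often close by. The median distance to the nearest SHP1705 peak was 4394.5 bp, and 72.1% of the regions (69.4 to 74.7) had such a peak within 10 kb, 16.6% within 1 kb and 98.9% within 100 kb. In gene-free stretches the median distance was 2891.5 bp, and elsewhere it was 12149 bp. These distances were not computed for other positions. They are thus not set apart from the local density of SHP1705 peaks. In the stretches, the SHP1705 peak nearest to a region, where within 10 kb, had a median height of 0.803 fragments per 1000000. The background of such SHP1705 peaks had its median at the minimum that the caller sets and is not compared. A comparison at the same places is possible in regions in all 4 lists. There, in the stretches, the median local background was 0.202 fragments per 1000000 in SHP1705, against 2.63 in MG132, 2.54 in SHP1705+MG132 and 2.62 in DMSO, each including the fragments of the peak itself. Elsewhere it was 3.604 in SHP1705, against 0.221, 0.182 and 0.193 in the same order. The part of height and of these lower SHP1705 levels in the absence of SHP1705 peaks was not tested.

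At the edge of the rule, 3 regions had an SHP1705 peak within 20 bp. The nearest lay 2 bp away, at chr7:58423841-58425274, where the heights were 10.2 in MG132, 20.97 in SHP1705+MG132 and 12.2 in DMSO. The next, at chr6:59654262-59655068, lay 12 bp away and had 4.95 in MG132, 32.9 in SHP1705+MG132 and 7.77 in DMSO. The region that touches the MRFAP1L2 window shown above lay 67 bp from an SHP1705 peak. Just outside the rule, a region on chromosome 2 (chr2:93593755-93594939) overlapped an SHP1705 peak of 38 fragments by 13 bp and counts as present in all 4 lists. It had heights of 15.2 in MG132, 4.59 in SHP1705+MG132 and 4.88 in DMSO, and 0.321 in SHP1705. The next smallest overlaps were 29, 32, 32 and 58 bp, against a median of 555 bp over regions in all 4 lists.

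The merged regions had a median width of 784.5 bp, with a middle range of 563.75 to 1075 bp and extremes of 355 and 2846 bp. Regions in all 4 lists were wider, with a median of 1001 bp, and regions in all but MG132, all but the combination and all but DMSO had 886, 868 and 885 bp. A merged region spans all its peaks, so 4 lists can give a wider region than 3. A wider region can also more easily meet an SHP1705 peak, so these widths are partly tied to the rule. Single peaks within the regions had medians of 495.5 bp in MG132, 485 bp in SHP1705+MG132 and 481 bp in DMSO. In regions in all 4 lists these were 639, 609.5 and 618 bp in the same order. In 1009 of the 1112 regions (90.7%) at least 1 base lay in a peak of each of the 3 lists, with a median of 374 common bases. The other 103 were joined only through a chain of overlapping peaks. The median distance between summits was 81 bp for MG132 and DMSO, 85 bp for the combination and DMSO, and 79 bp for the combination and MG132. All 3 summits lay within 100 bp of each other in 401 regions (36.1%). The widest region, 2846 bp at chr18:16735862-16738707, had heights of 9.12 in MG132, 3.88 in SHP1705+MG132 and 6.86 in DMSO.

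Single regions differed between the 3 lists far more than their medians. The tallest list was DMSO in 415 regions, the combination in 357 and MG132 in 340. The highest list exceeded the lowest by a median of 2.46-fold, by under 1.5-fold in 187 regions (16.8%), and by at least 4-fold in 310 (27.9%). These counts were not computed for other regions, so they do not show a spread particular to this set. The median log2 ratio of MG132 over DMSO was -0.05 (-0.11 to 0.04). It was -0.08 (-0.17 to 0.03) for the combination over DMSO and 0.00 (-0.05 to 0.07) for the combination over MG132. These ratios share lists and are no independent comparisons. Regions in all 4 lists had 0.08, -0.11 and -0.19. With MG132 and the combination each scaled so that regions in all 4 lists had a median ratio to DMSO of 0, the values of the regions without SHP1705 were -0.13, 0.03 and 0.20, so the sign of the combination over DMSO depends on the scaling.

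A height at least 1.5-fold higher in MG132 than in DMSO was seen in 306 of the regions (27.5%), and one at least 1.5-fold lower in 343 (30.8%). Among all 8873 regions in both lists these shares were 22.5% and 25.9%. For the combination over DMSO, 317 regions (28.5%) were higher and 361 (32.5%) lower, against 21.1% and 25.9% of 8158. For the combination over MG132, 322 (29.0%) were higher and 336 (30.2%) lower, against 24.3% and 24.2% of 9333. After the scaling given above, 282 regions were higher and 371 lower for MG132 over DMSO, 347 and 321 for the combination over DMSO, and 382 and 272 for the combination over MG132, so the balance of directions depends on the scaling. Taking both directions together, 58.4%, 61.0% and 59.2% passed 1.5-fold in the 3 comparisons, against 48.4%, 47.0% and 48.5% of all regions in both lists and 38.5%, 38.6% and 37.3% of regions in all 4 lists. The groups were not matched in height. Median pileups were 133 fragments in MG132, 139 in SHP1705+MG132 and 155 in DMSO, against 261, 255 and 261 in all 4 lists. The 103 regions whose peaks share no base common to the 3 lists are included. The part of either in the spread was not tested. With 1 library each, differences between treatments and between libraries cannot be told apart.

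Among the regions without SHP1705, the spread in gene-free stretches was smaller than in the regions elsewhere. In them 71.8% passed 1.5-fold either way for MG132 over DMSO, 70.6% for the combination over DMSO and 71.2% for the combination over MG132, against 52.7%, 56.9% and 54.1% in gene-free stretches and 48.4%, 47.0% and 48.5% of all regions in both lists. Their median log2 ratio of MG132 over DMSO was -0.41 (-0.58 to -0.11), while in the stretches it was 0.05 (-0.05 to 0.13). Of the 330, 146 (44.2%) were at least 1.5-fold lower and 91 (27.6%) higher, against 25.9% and 22.5% of all regions in both lists. These last include regions in the stretches and were not divided by location, so they do not match the regions elsewhere.

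Some regions lay in matching positions on different chromosomes and are called copies here. Their sequences were not compared, only their positions and heights. Of the 782 regions in gene-free stretches, 231 formed 79 sets in which regions on 2 to 4 chromosomes lay at a constant offset, a pattern found after the data were seen. Chromosome 1 coordinates exceeded those of chromosome 5 by 75194063 bp and those of chromosome 19 by 97594558 bp, and chromosome 13 exceeded chromosome 21 by 5135440 bp. In all, 9 such offsets linked chromosomes 1, 5 and 19, with 93 regions, and chromosomes 13, 14, 21 and 22, with 138 regions. These are the chromosomes whose gene-free stretches held 131 and 152 of the regions. The copies are not independent regions: counting each set once leaves 960. Copies within 1 chromosome were not looked for and can remain in this number.

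Copies had nearly equal heights. Copies of 1 set on chromosomes 1, 5 and 19 (chr1:123689712-123690284, chr5:48495793-48496221 and chr19:26095298-26095726) had pileups of 868, 951 and 885 fragments in MG132, of 768, 778 and 801 in SHP1705+MG132 and of 1029, 983 and 949 in DMSO. A set on chromosomes 13, 14, 21 and 22 (its first copy at chr13:16874509-16876811) had 110, 111, 96 and 127 in MG132, 441, 392, 402 and 410 in the combination, and 90, 102, 86 and 104 in DMSO. All 4 copies were thus highest in the combination. Another (chr13:17116773-17117647) had 215, 229, 269 and 248 in MG132, 87, 85, 76 and 78 in the combination, and 277, 311, 308 and 325 in DMSO, so that all 4 copies were lowest in the combination.

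Over the 243 linked pairs of copies, the median absolute log2 difference in height was 0.11 in MG132, 0.10 in SHP1705+MG132 and 0.09 in DMSO. The ratio of MG132 over DMSO differed by a median of 0.13 between copies, while its median size was 0.49. For the combination over DMSO these were 0.14 and 0.73, and for the combination over MG132 0.14 and 0.64. Both copies of a pair lay on the same side of 0 in 220 pairs for MG132 over DMSO, in 224 for the combination over DMSO and in 215 for the combination over MG132. Where the first copy passed 1.5-fold, in 101, 154 and 132 pairs, the second did so in the same direction in 91, 138 and 124. The pairs come from 79 sets, and a set of 3 or 4 copies gives several pairs. They are thus not independent, and copies within a library are no replicates of a treatment. Reads that match several copies equally may be divided among them by the aligner, which was not tested. Such division would itself make copies alike. The likeness of copies is thus no check on the heights, and it says nothing on spread between cultures. When the copy position of a region was looked up on the partner chromosome, in 634 look-ups that count each pair from both sides, 486 (76.7%) found another of the regions, which are the 243 linked pairs themselves, and 69 (10.9%) found an SHP1705 peak. The offsets were found from these pairs, so the first share is built into the choice of copies.

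**Figure D5:**
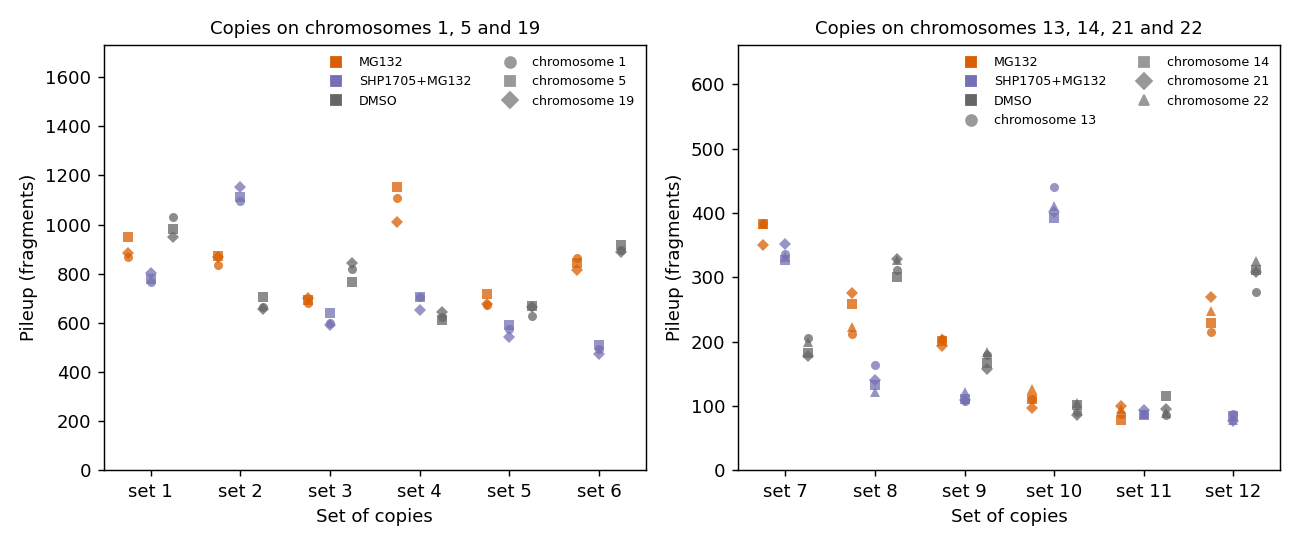
Pileup in fragments of 12 sets of copies on chromosomes 1, 5 and 19 (left) and on chromosomes 13, 14, 21 and 22 (right). Colours are lists and symbols are chromosomes. Symbols of 1 colour lie close together within a set, as in set 10, where the combination has 392 to 441 fragments and DMSO 86 to 104.

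The tallest regions, ranked by their lowest list, lay mostly in gene-free stretches. The first, chr12:37249744-37250610, lay 1066077 bp from ALG10B, the nearest protein-coding gene, and had heights of 105 in MG132, 84.1 in SHP1705+MG132 and 60.7 in DMSO. An SHP1705 peak lay 496 bp from it. The second, chr1:121765592-121766113, had 59.7 in MG132, 44.4 in SHP1705+MG132 and 64.6 in DMSO, and the third, chr7:59448008-59448447, had 38.4, 39.6 and 52.8. Of the 10 tallest, 9 lay in gene-free stretches and 5 had copies on another chromosome. Those 5 are copies of each other, a pair on chromosomes 1 and 5 and a set of 3 on chromosomes 1, 5 and 19. The exception, chr4:49129615-49130765, lay 67536 bp from CWH43, whose yeast counterpart remodels lipid anchors of membrane proteins, and had 29.5 in MG132, 82.8 in SHP1705+MG132 and 31.6 in DMSO. Their folds were modest, from 2.30 to 8.69.

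The regions of highest fold were of another kind. In 38 regions the fold exceeded 20 in every list, and 35 of these lay elsewhere, 17 of them inside a protein-coding gene. The fold of an isolated pile has a ceiling, because its own fragments fill the 10000 bp background, and the highest values were 27.8 in MG132, 27.5 in SHP1705+MG132 and 28.5 in DMSO. The region in NALF1, which encodes a partner of the sodium leak channel NALCN, lay at chr13:107573028-107573521 and had heights of 16.9 in MG132, 17.1 in SHP1705+MG132 and 11.3 in DMSO. The region in EP400, a chromatin remodelling ATPase, lay at chr12:131953336-131953899 and had 19.3, 20.8 and 25.002 in the same order. That in UBE2E2, a ubiquitin-conjugating enzyme, had 7.59 in MG132, 9.71 in SHP1705+MG132 and 18.0 in DMSO. That in DOCK10, an activator of small GTPases, had 6.74, 10.1 and 11.9. The nearest SHP1705 peak lay 10524 bp from the NALF1 region, 6691 bp from that of EP400, 63640 bp from that of UBE2E2 and 128370 bp from that of DOCK10.

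In protein-coding genes there were 117 regions, spread over 117 genes. The genes were long, with a median of 228 kb against 24.2 kb for all 19970 protein-coding genes, and 86 of them (73.5%) exceeded 100 kb, against 16.8% of all. No expectation by gene length was computed, so these lengths are a description. Only KATNAL2, a katanin-like gene of microtubule severing, held more than 1. Its 3 regions, each 1203 bp wide, had heights of 1.76, 1.83 and 1.58 in MG132, 3.28, 3.56 and 3.28 in the combination, and 7.10, 8.11 and 8.88 in DMSO. Of the 3, 2 lay on the pseudogenes ELOA3DP and ELOA3BP, copies of a transcription elongation gene. KATNAL2 was named after its values were seen. The twin genes PRR20A and PRR20B, also chosen in that way, each had a region 259 bp away and 1325 bp wide, with heights of 1.14 and 0.513 in MG132, 2.82 and 3.07 in the combination, and 3.10 and 3.20 in DMSO.

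Near gene ends the regions were few and varied. The region 74 bp from MRFAP1L2, inside LINC02482 at least in part, had heights of 7.37 in MG132, 11.2 in SHP1705+MG132 and 9.02 in DMSO. ADCY9, an adenylyl cyclase that makes cyclic AMP, had a region 964 bp inside its end with 13.7 in MG132, 7.27 in SHP1705+MG132 and 10.2 in DMSO. TLCD4 had 3.55 in MG132, 4.16 in SHP1705+MG132 and 14.6 in DMSO. UQCRB, a subunit of respiratory complex III, had 3.33, 17.7 and 8.28 in the same order, and the region over RPL35A, a protein of the large ribosomal subunit, and DRC9 had 3.08, 5.86 and 6.12. MRTO4, a ribosome assembly factor, had 2.38, 8.58 and 4.68, and RCVRN, the photoreceptor calcium sensor recoverin, had 2.13, 8.86 and 2.25. TAF11L6 had 6.56 in MG132, 4.02 in SHP1705+MG132 and 2.12 in DMSO. Among these, the combination was the highest list at MRFAP1L2, UQCRB, MRTO4 and RCVRN, MG132 at ADCY9 and TAF11L6, and DMSO at TLCD4 and RPL35A.

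No listed gene had a region nearby. Within 10 kb of a protein-coding gene lay a region for 164 of 19970 genes (0.821%). Of 227 listed genes, in 10 lists, 0 had one. A count of 0 allows a share of up to 1.32%, so a difference from all genes was not detectable. The lists covered proteins of the clock core loop, with 21 genes, turnover of clock proteins with 15, proteasome subunits with 32, heat shock and chaperones with 24, mesenchymal and basal breast with 24, luminal breast with 22, AP-1 and immediate early with 23, interferon response with 24, NF-kB with 22 and p53 targets with 20. Among families chosen by symbol, olfactory receptors had 2 of 392, OR10J5 and OR6C4, and zinc finger genes 2 of 517, ZNF285 and ZNF804B. Keratin-associated proteins had 2 of 94, KRTAP5-7 and KRTAP5-11, protocadherins 1 of 65, PCDH15, and beta-defensins 1 of 39, DEFB110. Cadherins had 0 of 23 and adhesion receptors of the ADGR family 0 of 28.

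Among regions with at least 30 fragments in both lists compared, the largest ratios were as follows. For MG132 over DMSO the highest was in LRRC7, a scaffold of synapses, at chr1:69909901-69911054, with heights of 42.4 in MG132, 3.14 in SHP1705+MG132 and 1.78 in DMSO (log2 ratio 4.57). A region 870330 bp from NCAM2, a neural adhesion gene, had 27.4 in MG132, 2.47 in SHP1705+MG132 and 1.31 in DMSO. In both, MG132 was the highest list, and the combination exceeded DMSO by 0.82 (LRRC7) and 0.91 (NCAM2) on the log2 scale. The lowest MG132 over DMSO ratio, -4.90, was at chr6:1141601-1142639, 169459 bp from FOXQ1, a forkhead transcription factor gene, with 2.49 in MG132, 48.0 in SHP1705+MG132 and 74.3 in DMSO. In INPP5A, an inositol phosphatase gene, the heights were 3.15 in MG132, 74.2 in SHP1705+MG132 and 61.8 in DMSO.

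For the combination over DMSO the highest ratio, 5.44, was in a gene-free stretch at chr2:93672688-93673789, with 26.5 in MG132, 117 in SHP1705+MG132 and 2.69 in DMSO. A region 510133 bp from ZFHX4, a homeobox gene, had 5.83 in MG132, 44.1 in SHP1705+MG132 and 1.35 in DMSO. The lowest, -5.45, was at chr1:124793616-124794153, with 18.7 in MG132, 1.80 in SHP1705+MG132 and 78.4 in DMSO. A region 92094 bp from MAGEC2, a cancer-testis antigen gene, had 0.843 in MG132, 1.13 in SHP1705+MG132 and 29.8 in DMSO. For the combination over MG132 the highest ratio, 5.19, was 182976 bp from ARPP21, a gene for a phosphoprotein of the brain, with 1.28 in MG132, 46.8 in SHP1705+MG132 and 3.802 in DMSO. These were chosen for their ratios and are a description only.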

How the data were processed

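The regions and gene lists were chosen with earlier results of these data known. The submitters' processing notes name hg38 and the tools Trimmomatic, FastQC, Bowtie2 and MACS2. Of their versions the headers give MACS 2.2.6. Each library was called alone, per the file headers, on fragments, with duplicates kept, no control library, a q limit of 0.01 and a background over 10000 bp. The deposited signal is the pileup at a summit, not scaled for depth. The deposited fold is a ratio of pileup to local background, with 1 added to each, and −log10 p and −log10 q are those of the authors' peak caller, used only to describe or filter. Peak widths, the other measure, follow from the deposited start and end.

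Peaks were merged at 1 shared bp, the tallest peak standing for a list, with Python 3.11.15, pandas 2.3.3 and numpy 2.4.6. The merging was tested on simulated peaks. Heights were divided by the header's fragments in units of 1000000. Genes, with starts and ends only, came from RefSeq (GRCh38.p14), so exons and introns were not used here, and 227 of 228 listed names matched. Intervals of shares are Wilson intervals for counting error. Named regions were the 10 tallest, the 10 of highest lowest fold, the 3 highest and lowest of each ratio, the 5 largest clusters, the 10 tallest within 1 kb of a gene end, the 5 nearest to SHP1705 and the 5 widest; the text gives a selection of these, and some results are not reported here. No other series columns were used.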

Additional observations from a re-analysis of the deposited data

Results flagged for a closer look

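On contigs of the assembly that are not placed on chromosomes 1 to 22 or X, and which the comparisons above leave out, 34 of 1504 merged regions had a peak in MG132, the combination and DMSO and none in SHP1705. Another 107 had a peak in all 4 lists, so that 24.1% of the regions in the other 3 lists lacked SHP1705 there, against 19.5% on the chromosomes. There is no control library against which to set them, and no copies or genes were looked up for them.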

How the results depend on the processing

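Of 57 alternatives to 14 results, 37 moved the value by less than its interval or by less than 1.5 times, and 20 moved it further. No direction between treatments was called. Scaling changed the sign of the median log2 ratio of the combination over DMSO, from -0.08 to 0.03. A −log10 q of 5 or more changed that of the combination over MG132, from 0.005 to -0.007. The number of regions was 535 with lists cut to equal length by −log10 p and 310 when an SHP1705 peak within 10 kb counted as present; the other settings gave 927 to 1371. Without the longest gene-free stretch of each chromosome, the share outside genes was 61.8%, in protein-coding genes 25.8%, at gene ends 2.87%, the number clustered 153 and the median log2 ratio of the combination over MG132 0.081. Without all gene-free stretches of at least 1 Mb, chosen after seeing the data, the 3 shares were 47.6%, 35.5% and 3.94%. With each set of copies counted once, also chosen after seeing the data, the share outside genes was 82.0% and that in gene-free stretches 65.6%. By the DMSO summit the gene-end share was 0.540%. By the median of the 3 peaks the width was 484.5 bp. Scaled to regions in all 4 lists, the median log2 ratios were -0.13 for MG132 over DMSO, 0.032 for the combination over DMSO and 0.20 for the combination over MG132, the last with 382 higher and 272 lower. Within 10 kb, 211 regions were clustered. An SHP1705 peak lay within 1 kb of 16.6% and within 100 kb of 98.9%. Where no value above shows it, the cause was not tested. No paired analysis was possible because each treatment has 1 library and no replicate numbers. With 1 library each, neither biological nor technical spread is known, and the lowest called heights rest on 12 or 13 fragments.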
